A study of Homo sapiens with 8 samples.

Results

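The small structural noncoding RNAs are the short RNAs that work as parts of RNA-protein machines and are not translated. They were chosen by gene symbol alone: small nucleolar RNAs (SNORA, SNORD), small Cajal body RNAs (SCARNA), spliceosomal RNAs (RNU, RNVU), 7SL and 7SK (RN7S), RMRP, RPPH1, Y RNAs, vault RNAs and TERC. Of the 13771 genes in the table, 142 matched. Copies of U1, U3, U4, U5, U6 and 7SL were then summed within each family, which left 126 members among 13755 features: 52 box C/D snoRNAs, 47 box H/ACA snoRNAs, 12 scaRNAs, 7 spliceosomal snRNAs, 7SL, 7SK, RMRP and RPPH1, 2 Y RNAs, TERC and VTRNA1-3. The table holds only genes with more than 0.5 CPM (reads of a gene scaled to library size) in at least 2 libraries, so RNAs of these classes below that level were not analysed here.

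MCF10A is an immortalized, non-tumorigenic human breast epithelial line, and DCIS.COM is a related line that models ductal carcinoma in situ. RNA-seq had been done on cells with an empty pCDH lentiviral vector or with pCDH-HOTAIR, which drives the long noncoding RNA HOTAIR. All cells were puromycin-selected, stably transduced populations. Each of the 4 groups (MCF10A pCDH-empty, MCF10A pCDH-HOTAIR, DCIS.COM pCDH-empty, DCIS.COM pCDH-HOTAIR) had 2 libraries. The labels do not say whether these came from separate cultures, so p-values measure the spread between libraries, which may be technical.

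Box C/D snoRNAs guide 2'-O-methylation and box H/ACA snoRNAs guide pseudouridylation of ribosomal RNA, while scaRNAs guide the same changes on spliceosomal RNAs. Most human snoRNAs are cut out of introns of a host gene, whereas U3, 7SL, 7SK and the U RNAs have genes of their own. U1, U2, U4, U5 and U6 are the RNA core of the spliceosome, 7SL is the scaffold of the signal recognition particle, and 7SK holds the elongation factor P-TEFb inactive. U3 is a box C/D RNA that acts in early ribosomal RNA processing rather than in methylation. RMRP and RPPH1 are the RNAs of RNase MRP and RNase P.

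The sequences below are shown because the results turn on these RNAs and because U1 and U3 are families of near-identical copies. They come from the GENCODE transcripts on GRCh37, printed 5′ to 3′ as DNA letters. Capitals mark the stretch of U1 that pairs with the 5′ splice site, the stretch of U2 that pairs with the branch point and the box C and box D motifs of U3 (TGATGA and CTGA). RNY1 has no capitals because no single stretch is at issue. For U3 only the first 217 bases of the gene model are printed, the length RefSeq gives.
RNU1-1: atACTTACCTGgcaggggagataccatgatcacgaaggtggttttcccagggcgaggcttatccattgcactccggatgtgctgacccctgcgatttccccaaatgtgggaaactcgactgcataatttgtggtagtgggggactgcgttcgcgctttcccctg
RNU2-2P: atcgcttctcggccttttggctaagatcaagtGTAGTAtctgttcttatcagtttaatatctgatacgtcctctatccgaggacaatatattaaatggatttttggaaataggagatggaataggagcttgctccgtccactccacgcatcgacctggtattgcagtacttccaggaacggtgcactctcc
SNORD3A: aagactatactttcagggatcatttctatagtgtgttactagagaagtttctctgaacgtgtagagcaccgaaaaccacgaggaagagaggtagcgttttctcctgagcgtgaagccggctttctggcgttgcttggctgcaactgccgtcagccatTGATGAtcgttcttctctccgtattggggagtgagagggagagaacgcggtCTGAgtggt
RNY1: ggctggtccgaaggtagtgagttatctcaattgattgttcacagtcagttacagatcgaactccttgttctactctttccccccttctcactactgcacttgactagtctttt

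On GRCh37, RNU1-1 lies at chr1:16840617-16840780, minus strand, RNU2-2P at chr11:62609091-62609281, minus strand, the printed part of SNORD3A at chr17:19091329-19091545, plus strand and RNY1 at chr7:148684228-148684340, minus strand. RNU1-1, SNORD3A and RNY1 lie outside other annotated genes. RNU2-2P overlaps an exon of another annotated gene, so reads of that gene could be counted with it. Of the 8 U1 genes in the table, 7 share the RNU1-1 sequence and RNVU1-7 differs by T150C (positions counted from 1 at the 5′ end, RNU1-1 first). In the first 217 bases, SNORD3B-1, SNORD3B-2 and SNORD3C each differ from SNORD3A at 1 base. SNORD3D was not compared. RNU2-2P was the only U2 gene in the table.

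Box motifs were then searched in the snoRNAs that matched a GENCODE transcript, on the RNA strand only. Of 33 box C/D snoRNAs other than U3, 31 held TGATG in the first 20 bases and 31 held CTGA in the last 20. Of 35 box H/ACA snoRNAs, 0 held TGATG in that window and 5 held CTGA. In turn, 31 of the 35 box H/ACA snoRNAs held ACA in the last 10 bases, against 4 of the 33 box C/D snoRNAs. The snoRNAs printed next are 4 box C/D RNAs that differed between the cell lines and had a matched transcript (SNORD35A, SNORD32A, SNORD2, SNORD89), SNORA4, SNORD17, and 4 whose values stood apart in 1 library (SNORD5, SNORD104, SNORD97, SNORA32). Capitals mark TGATG, CTGA and, in the H/ACA RNAs, ACA, where these fell in the windows above. SNORD97 has neither box motif in this spelling.
SNORD35A: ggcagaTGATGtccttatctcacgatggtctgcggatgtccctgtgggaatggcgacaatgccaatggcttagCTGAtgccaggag
SNORD32A: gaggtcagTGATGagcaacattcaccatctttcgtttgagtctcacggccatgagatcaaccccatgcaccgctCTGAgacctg
SNORD2: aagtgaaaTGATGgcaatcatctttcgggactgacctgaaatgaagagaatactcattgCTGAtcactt
SNORD89: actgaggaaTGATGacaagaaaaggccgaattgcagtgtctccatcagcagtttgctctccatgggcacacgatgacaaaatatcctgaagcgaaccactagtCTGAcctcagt
SNORD17: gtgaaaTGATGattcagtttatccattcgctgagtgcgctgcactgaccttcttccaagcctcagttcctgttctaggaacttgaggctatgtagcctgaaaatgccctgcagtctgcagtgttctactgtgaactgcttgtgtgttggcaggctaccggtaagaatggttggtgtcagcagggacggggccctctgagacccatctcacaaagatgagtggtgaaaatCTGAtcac
SNORD5: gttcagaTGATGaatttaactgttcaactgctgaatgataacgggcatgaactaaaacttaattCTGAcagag
SNORD104: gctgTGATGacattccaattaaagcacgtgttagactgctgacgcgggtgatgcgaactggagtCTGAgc
SNORD97: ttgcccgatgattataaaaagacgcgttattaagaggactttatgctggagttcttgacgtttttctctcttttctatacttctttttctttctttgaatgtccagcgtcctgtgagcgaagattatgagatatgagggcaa
SNORA4: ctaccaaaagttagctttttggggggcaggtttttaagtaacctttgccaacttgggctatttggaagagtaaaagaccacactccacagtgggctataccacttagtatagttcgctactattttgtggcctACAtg
SNORA32: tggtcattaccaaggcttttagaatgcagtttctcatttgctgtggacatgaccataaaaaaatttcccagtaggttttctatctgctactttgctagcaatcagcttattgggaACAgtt

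Their GRCh37 positions are as follows. SNORD35A (chr19:49994432-49994517, plus strand) and SNORD32A (chr19:49993222-49993305, plus strand) lie in the ribosomal protein gene RPL13A. SNORD2 (chr3:186502585-186502653, plus strand) and SNORA4 (chr3:186505401-186505538, plus strand) lie in EIF4A2, which encodes a translation initiation helicase. SNORD89 (chr2:101889398-101889511, minus strand) lies in RNF149, SNORD17 (chr20:17943353-17943589, minus strand) in SNX5 and SNORD97 (chr11:10823014-10823155, minus strand) in EIF4G2. SNORD5 (chr11:93466394-93466466, minus strand) and SNORA32 (chr11:93464145-93464265, minus strand) lie in TAF1D, and SNORD104 (chr17:62223443-62223512, plus strand) in SNHG25. SNORD17 and SNORD104 are intronic and overlap no exon of another annotated gene. The other 8 overlap an exon of at least 1 annotated transcript, where reads of the host RNA could be counted as the snoRNA.

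Library totals ran from 19306864 to 34884841 reads. HOTAIR had 45 and 40 reads in MCF10A pCDH-empty, 4614 and 4827 in MCF10A pCDH-HOTAIR, 119 and 140 in DCIS.COM pCDH-empty, and 7166 and 6385 in DCIS.COM pCDH-HOTAIR, in the order of the labels. All 7 epithelial markers were present, with a summed level of 10969 to 12489 CPM in MCF10A and 3167 to 3935 CPM in DCIS.COM. Of 9 markers of other cells only PECAM1 and CD14 were in the table, summing to 20.4 to 26.5 CPM in MCF10A and 11.5 to 14.1 CPM in DCIS.COM. In bulk samples, fewer cells of a type and less RNA per cell cannot be told apart.

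One library, DCIS.COM pCDH-empty 1, stood apart in these RNAs. Against the median of the other 3 DCIS.COM libraries, 14 of the 126 members (11.1%) were more than 1 log2 unit lower there and 5 (3.97%) more than 1 unit higher, compared with 2.09% and 0.327% of all features. Low counts widen such gaps, and 56 of the members had a mean under 2 CPM. Among the 1441 other features under 2 CPM, the shares were 5.62% and 1.67%, nearer to those of the members. In each of the other 7 libraries, measured the same way within its cell line, no more than 2 members were that far below and no more than 1 that far above. Several results below rest on this library, and values without it or levels in single libraries are given for many of them.

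By reads, 7SL was the largest of these RNAs. It took 11.1% to 18.9% of all reads, with the lowest share in MCF10A pCDH-HOTAIR 2 and the highest in DCIS.COM pCDH-empty 1. The 95% Wilson interval of each share was within 0.0147 percentage points on either side, which covers counting error only. Reads that fit both RN7SL1 and RN7SL2 may have been counted for each, so the share itself is uncertain. The other members together took 2.77% to 3.71%. Of these, RMRP and RPPH1 had 1.43% to 1.70%, 7SK 0.915% to 1.30%, box C/D snoRNAs 0.109% to 0.460% and spliceosomal snRNAs 0.123% to 0.403%. Most of the box C/D reads were those of U3, which alone took 0.0976% to 0.440%. Box H/ACA snoRNAs had 0.0835% to 0.131% and scaRNAs 0.0272% to 0.0400%.

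**Figure D1:**
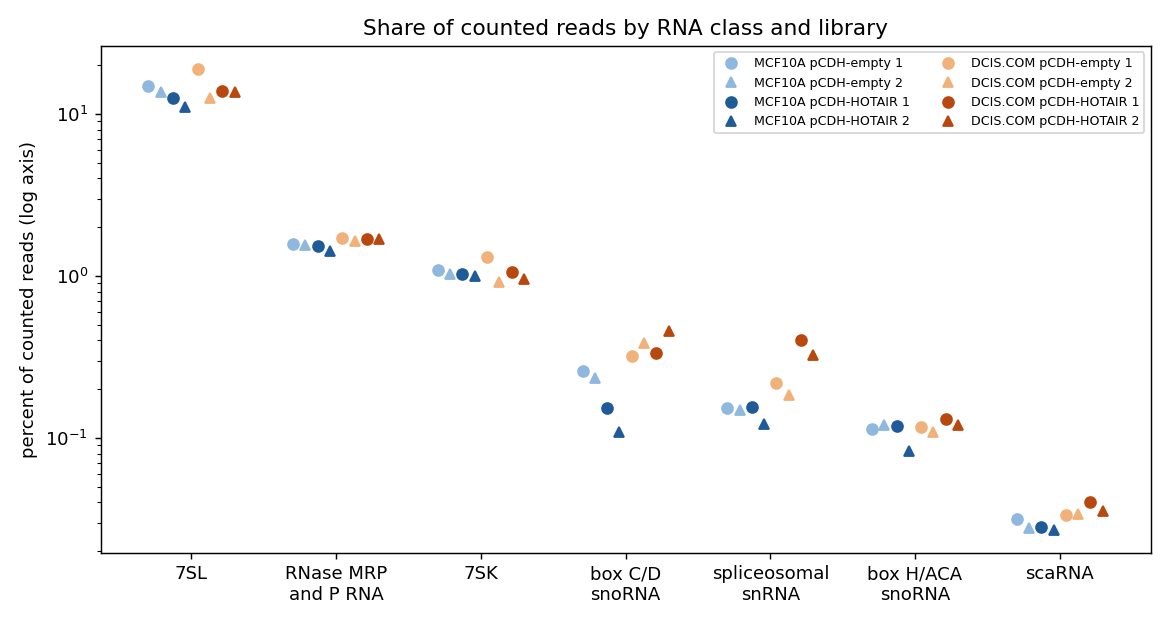
Share of all counted reads (percent, log axis) taken by the 7 classes with the most reads in each of the 8 libraries; circles are replicate 1, triangles replicate 2, colours the groups. 7SL lies above 11% in every library. MCF10A pCDH-HOTAIR is lowest for box C/D (0.109% and 0.153%), where U3 alone has 0.0976% and 0.141%. DCIS.COM pCDH-HOTAIR is highest for snRNAs (0.323% and 0.403%).

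Levels between RNAs were compared per gene copy and per kilobase, as a mean over the 8 libraries. 7SL stood at 233282 CPM per kilobase, followed by RMRP at 32176, RN7SK at 31636 and RPPH1 at 21505. SNORA73A, an H/ACA RNA, came next at 2827, then U3 at 2445, SNORA73B at 1786, U2 at 1470 and U1 at 1362. SNORA63 had 381, SNORD17 251, SCARNA10 225, RNY1 193, SCARNA12 182, SCARNA2 172, SCARNA7 157, RNY3 157 and U4 132 CPM per kilobase. SNORD10 had 82.7, TERC, the template RNA of telomerase, 73.4 and VTRNA1-3 46.0.

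Most members were far lower. The median was 16.3 CPM per kilobase for box C/D snoRNAs and 14.7 for box H/ACA snoRNAs. The 19 members of 200 nt or more had a median of 182 CPM per kilobase, and the 107 shorter ones 16.6. Over all 126, length and the log2 of this level had a Pearson r of 0.48 and length and level a Spearman rho of 0.26, given as a description since the members share libraries and depth. The RNA came from RNeasy columns, and the part of size selection in these levels was not tested. Counts were low at this end, where the median member under 200 nt had 49 reads per library.

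Copies within a family behaved in different ways. In each library the 8 U1 genes had counts within 0.625% to 1.79% of their mean from lowest to highest, with a variance of 0.0191 to 0.134 times the mean, far tighter than separate sampling of reads would give. The RNU6-1 and RNU6-6P pair, with the same sequence, was as close, with a variance of at most 0.0284 times the mean. The sums for these families, and the share of reads of the snRNAs, therefore count the same reads more than once. A fold change of the sum is that of a single copy, and values of single copies are uncertain. SNORA59A and SNORA59B were also close, with a variance of at most 0.195 times the mean, but were left as separate members. The same reads may thus count for both. Between the cell lines with the empty vector they gave log2 fold changes of 1.07 and 1.04.

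RN7SL1 and RN7SL2 had a count ratio of 0.906 in MCF10A pCDH-empty 1, 0.992 to 1.01 in the other MCF10A libraries and 1.14 to 1.16 in DCIS.COM. SNORD3D had 0.251 to 0.346 times the reads of SNORD3A in 7 libraries and 0.0711 times in DCIS.COM pCDH-HOTAIR 1, where SNORD3B-1 also had its lowest ratio to SNORD3A (0.203, against 0.334 to 0.482 elsewhere). SNORD3B-1 and SNORD3B-2 were close in MCF10A, with a variance of 0.0134 to 0.0416 times the mean, and less so in DCIS.COM (1.15 to 10.2 times). The U5 genes were less alike: RNU5B-1 had 94.0% and RNU5E-1 88.3% identity with RNU5A-1. Taken apart, RNU5E-1 was higher in DCIS.COM with the empty and HOTAIR vectors, at log2 fold changes of 1.07 and 0.90 (limma adjusted p = 0.0121 and 0.0265). RNU5A-1 gave 0.21 and 0.90 and RNU5B-1 -0.95 and -0.11, and the U5 sum was not called. The copies of 7SL, U3 and U5 were summed for all tests. How reads that fit several copies were assigned is not known, so these sums may count some reads more than once.

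The first question was whether the HOTAIR vector went with a change of these RNAs in MCF10A. None of the 126 members passed the test there (limma, with a Benjamini-Hochberg adjusted p-value over all features below 0.05 and at least a 1.5-fold difference). The background is low: 0.0218% of all features, 3 genes, were called. At an unadjusted p-value under 0.05, 1 member, SCARNA7, was higher (0.794%) and 13 were lower (10.3%), against 4.43% and 2.86% of all features. The median log2 fold change of the members was -0.12, and of all features -0.01. limma-voom on the recovered reads likewise called 0 members, with 11 at an unadjusted p-value under 0.05.

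U3 had 77260 and 59827 reads in MCF10A pCDH-empty and 27149 and 19208 in MCF10A pCDH-HOTAIR, or 11.28 and 11.13 against 10.45 and 9.91 log2 CPM. Both pCDH-HOTAIR libraries were below both pCDH-empty libraries. The log2 fold change was -1.02 ± 0.20 (standard error, limma; adjusted p = 0.229), which did not pass.

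SNORD17, a box C/D snoRNA with an unusually long sequence, had 5.89 and 5.75 log2 CPM with the empty vector and 5.24 and 4.85 with HOTAIR, a log2 fold change of -0.78 ± 0.17 (limma adjusted p = 0.277). SCARNA10 had 6.30 and 6.11 against 5.60 and 5.33 log2 CPM, with a log2 fold change of -0.74 ± 0.12 (limma adjusted p = 0.158), the smallest p-value of any member in this comparison. SCARNA5 had 3.69 and 3.17 against 2.73 and 2.31 log2 CPM, a log2 fold change of -0.91 ± 0.24 (limma adjusted p = 0.378). In all 3 RNAs the vector groups did not overlap. That held for 34 of the 126 members in the lower direction and 13 in the higher one, against 24.8% and 22.5% of all features.

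The abundant RNAs that polymerase III transcribes differed less. 7SL had 17.21 and 17.09 log2 CPM with the empty vector and 16.92 and 16.74 with HOTAIR, a log2 fold change of -0.32 ± 0.31 (limma adjusted p = 0.928). Taken apart, RN7SL1 gave -0.29 and RN7SL2 -0.35. RN7SK gave -0.10 ± 0.20, RMRP -0.06 ± 0.15, RPPH1 -0.18 ± 0.10 and TERC, a polymerase II product, 0.12 ± 0.13, with limma adjusted p-values from 0.795 to 0.991.

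In DCIS.COM, 0 of 126 members passed the same test of HOTAIR over empty vector, and 0.0872% of all features, 12 genes, were called. At an unadjusted p-value under 0.05, 14 members were higher (11.1%) and 0 were lower, against 9.09% and 8.43% of all features. The median log2 fold change was 0.09 for the members and 0.01 for all features. limma-voom called 0 members, with 19 at an unadjusted p-value under 0.05.

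U1 had 57180 and 38848 summed reads in DCIS.COM pCDH-empty and 121228 and 89899 in DCIS.COM pCDH-HOTAIR, or 10.89 and 10.50 against 11.74 and 11.39 log2 CPM. Both pCDH-HOTAIR libraries were the higher. The log2 fold change was 0.86 ± 0.18 (limma adjusted p = 0.152). In MCF10A the same RNA had 10.32 and 10.28 against 10.37 and 9.99 log2 CPM, and the groups overlapped.

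U2 had 8.53 and 8.12 log2 CPM with the empty vector and 8.83 and 8.66 with HOTAIR in DCIS.COM, a log2 fold change of 0.42 ± 0.13 (limma adjusted p = 0.238). SNORD81, a box C/D snoRNA of GAS5, had few reads, 12 and 16 against 49 and 33, and a log2 fold change of 1.14 ± 0.29 (limma adjusted p = 0.202). SCARNA9 had 97 and 119 against 233 and 169 reads, a log2 fold change of 0.59 ± 0.18 (limma adjusted p = 0.233). Without DCIS.COM pCDH-empty 1 that of SCARNA9 was 0.37 and that of SNORD81 0.89; without pCDH-empty 2 they were 0.82 and 1.39, and both were called. 7SL gave -0.22 ± 0.31, RN7SK -0.17 ± 0.20 and RMRP -0.18 ± 0.15. For each of these, both pCDH-HOTAIR libraries lay between pCDH-empty 1, the highest, and pCDH-empty 2, the lowest. 7SL had 17.63 and 16.88 log2 CPM with the empty vector and 17.05 and 17.02 with HOTAIR. The direction of these differences thus turned on pCDH-empty 1. RPPH1 gave 0.14 ± 0.10, U3 0.11 ± 0.20 and TERC -0.19 ± 0.13. The limma adjusted p-values of all these RNAs ran from 0.426 to 0.784. The U3 copies went both ways here, SNORD3A at 0.40, SNORD3C at 0.42, SNORD3B-1 at -0.29, SNORD3B-2 at -0.33 and SNORD3D at -0.77, none called, while in MCF10A all 5 lay between -1.09 and -0.95.

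**Figure D2:**
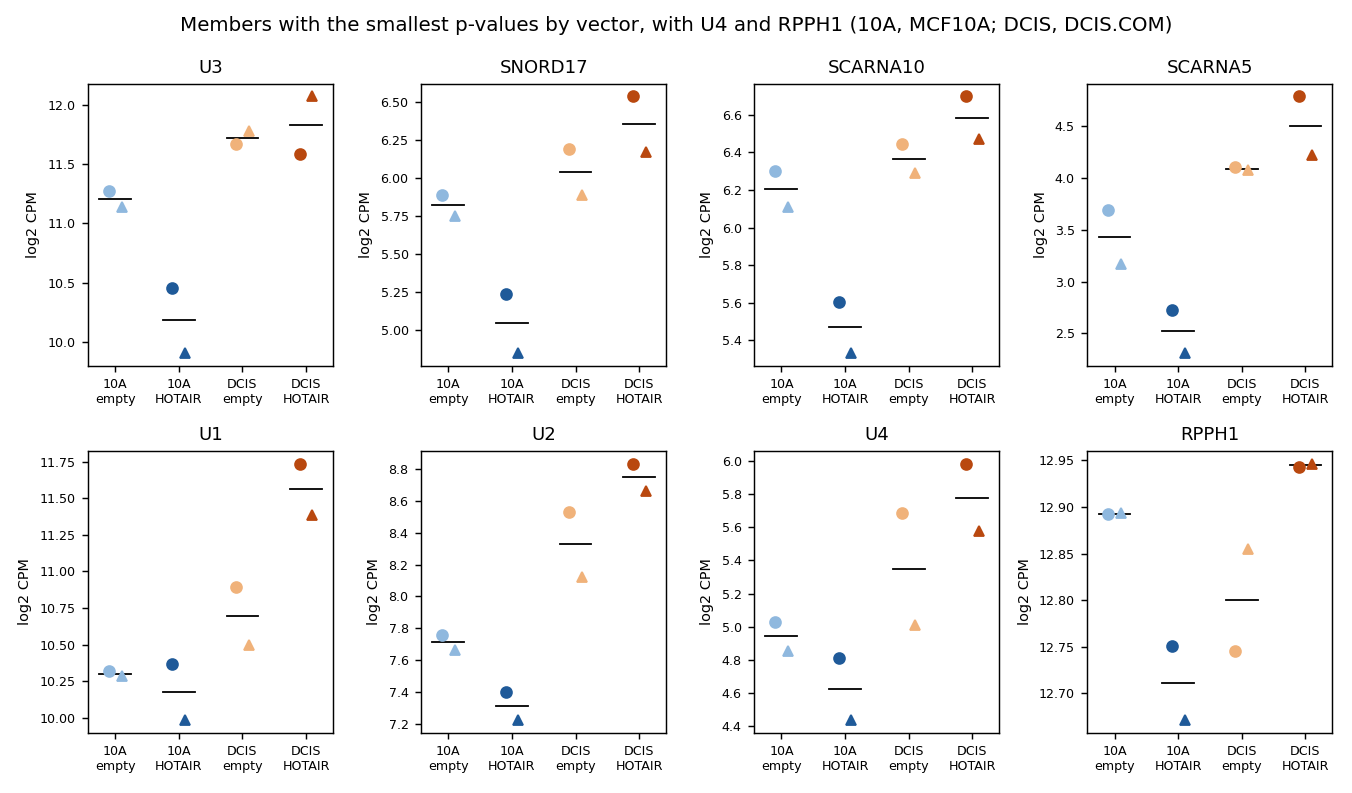
log2 CPM of 8 members in every library; circles are replicate 1, triangles replicate 2, bars the group mean, and each panel has its own axis. U3, SNORD17, SCARNA10 and SCARNA5 are lowest in both MCF10A pCDH-HOTAIR libraries, U1, U2 and U4 are highest in a DCIS.COM pCDH-HOTAIR library, and RPPH1 spans 12.67 to 12.95.

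The calls with HOTAIR in DCIS.COM turned on which DCIS.COM pCDH-empty library was the control. Without DCIS.COM pCDH-empty 2, so that pCDH-empty 1 was the only control, 30 of the 126 members were called, 22 of them higher, at a background of 10.1% of all features, 8.06% higher and 2.09% lower. The larger of these were SNORD79 (log2 fold change 3.12), SNORD5 (2.97), SNORD104 (2.79), SNORD47 (2.49), SNORA32 (2.33) and SNORD97, which lay between SNORD79 and SNORD5; they were chosen here after their values were seen. Without DCIS.COM pCDH-empty 1, 2 members were called, U1 (1.06, limma adjusted p = 0.024) and U2 (0.62, limma adjusted p = 0.0197), both higher, at a background of 0.378%, 0.313% higher and 0.0654% lower. Without DCIS.COM pCDH-empty 2 the value of U1 was 0.67, and U2 was not among the RNAs called. In these fits the lone library is assumed to vary like the other groups.

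Leaving out either DCIS.COM pCDH-empty library also changed the count for MCF10A, from 0 to 3 members, all lower (SCARNA10, SNORD17 and U3), with a background of 0.385% in all and 0.08% lower, since the spread is shared by all groups. The log2 fold changes in MCF10A are the same in those fits.

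The difference between the HOTAIR effects in the 2 cell lines was tested as an interaction. No member passed at an adjusted p-value under 0.05 (limma; 0.0509% of all features, 7 genes, did), and at an unadjusted p-value under 0.05 there were 17, 16 of them with the higher log2 fold change in DCIS.COM (12.7% of the members, against 5.16% of all features) and 1, SNORA80A, with the lower (0.794%, against 5.36%). limma-voom also called 0, with 17 at an unadjusted p-value under 0.05. The smallest p-values were those of SCARNA10 (log2 difference 0.95 ± 0.17, limma adjusted p = 0.194), SNORD17 (1.10 ± 0.24, limma adjusted p = 0.265) and U2 (0.82 ± 0.19, limma adjusted p = 0.301). U1 gave 0.99 ± 0.25 (limma adjusted p = 0.324) and U3 1.13 ± 0.29 (limma adjusted p = 0.326), with single U3 copies from 0.21 (SNORD3D) to 1.49 (SNORD3A).

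For 10 members, RPPH1, SCARNA10, SCARNA5, SCARNA6, SNORA12, SNORA25, SNORA68, SNORD36A, SNORD79 and U2, both MCF10A pCDH-HOTAIR libraries lay below both controls and both DCIS.COM pCDH-HOTAIR libraries above theirs (7.94% of the members, against 6.06% of all features). SNORA80A and SNORD35A did the opposite, and these 12 were picked out after their values were seen. None of these passed the interaction test with all 8 libraries. With 1 DCIS.COM pCDH-empty library left out, 3 members passed without pCDH-empty 1 (SCARNA10, U1 and U2) at a background of 0.771%, and 34 without pCDH-empty 2 at a background of 32.2%.

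**Figure D3:**
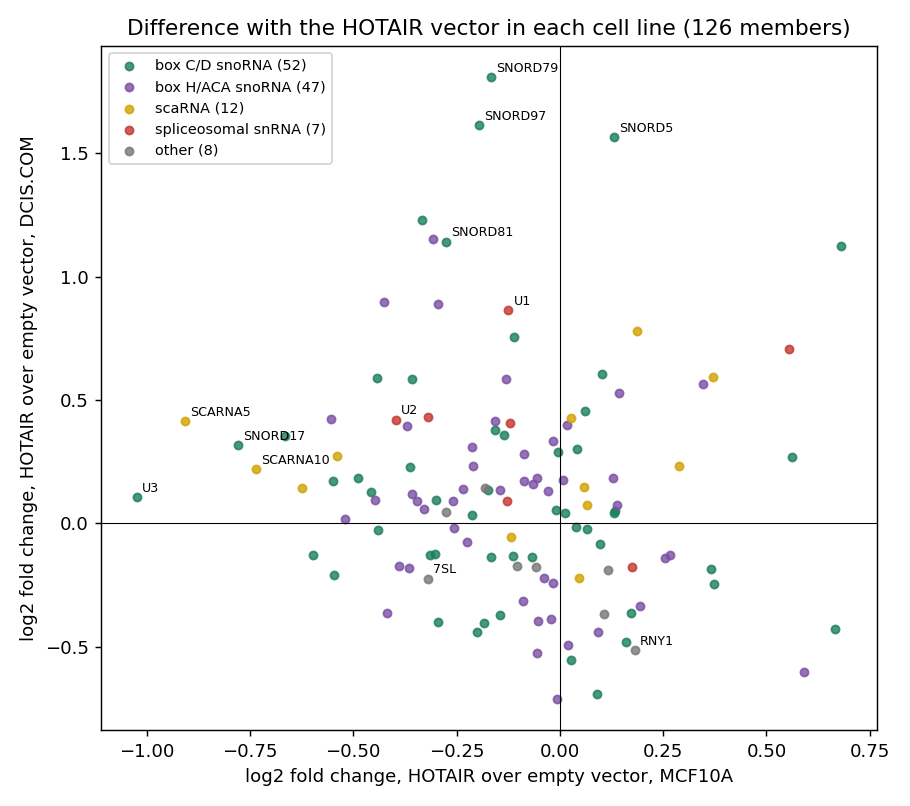
log2 fold change of each of the 126 members for HOTAIR over empty vector, MCF10A on the horizontal and DCIS.COM on the vertical axis, coloured by class. U3, SCARNA5, SNORD17 and SCARNA10 lie at the left edge, between -1.02 and -0.74 in MCF10A and 0.11 and 0.41 in DCIS.COM; SNORD79, SNORD97 and SNORD5, at the top, are the members whose reads were very low in DCIS.COM pCDH-empty 1.

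More members were called between the cell lines. The authors' methods give the lines different media, both with horse serum. That of MCF10A also held epidermal growth factor, hydrocortisone, insulin and cholera toxin, so line and medium cannot be told apart. With the empty vector, 35 members passed between DCIS.COM and MCF10A, 31 higher (24.6%) and 4 lower (3.17%) in DCIS.COM. Over all features 46.3% were called, 22.5% higher and 23.8% lower. The median log2 fold change was 0.31 for the members and -0.00109 for all features. By class, 14 of the 52 box C/D snoRNAs, 11 of the 47 box H/ACA snoRNAs, 2 of the 12 scaRNAs (SCARNA5 and SCARNA16) and 2 of the 7 snRNAs (U2 and RNU11, an RNA of the minor spliceosome) were called higher, with RNY1 and VTRNA1-3.

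With the HOTAIR vector, in libraries that the empty-vector comparison did not use, 44 members passed, 43 higher (34.1%) and 1 lower (0.794%), with 43.7% of all features called, 21.9% higher and 21.7% lower. The median log2 fold change was 0.54, against 0.00284 for all features. The higher calls were 21 box C/D snoRNAs, 12 box H/ACA snoRNAs, 4 scaRNAs (SCARNA5, SCARNA6, SCARNA10 and SCARNA16), 4 snRNAs (U1, U2, U4 and RNU11), RNY1 and VTRNA1-3. RNU11 and SCARNA6 are named here to complete these counts, after their values were seen. Both comparisons called 24 members, all in the same direction, which is 68.6% of the first list and 54.5% of the second. Over all features 82.9% and 87.9% of the calls were shared, and 5280 of these 5281 had the same direction.

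RNY1, one of the Y RNAs that bind the Ro60 protein, had 166 and 185 reads in MCF10A pCDH-empty, 131 and 141 in MCF10A pCDH-HOTAIR, 2018 and 645 in DCIS.COM pCDH-empty, and 1140 and 828 in DCIS.COM pCDH-HOTAIR. Every DCIS.COM library was higher than every MCF10A library, and DCIS.COM pCDH-empty 1 was the highest. The log2 fold change was 2.71 ± 0.40 with the empty vector (limma adjusted p = 0.000468) and 2.01 ± 0.40 with HOTAIR (limma adjusted p = 0.00256). Without DCIS.COM pCDH-empty 1 the first was 1.97. RNY3, another Y RNA, had a log2 fold change of 0.67 ± 0.36 and 0.20 ± 0.36 (limma adjusted p = 0.129 and 0.649), and neither passed. The first for RNY3 rested on DCIS.COM pCDH-empty 1, at 5.01 log2 CPM. DCIS.COM pCDH-empty 2, at 3.65, lay between the MCF10A pCDH-empty libraries, at 3.62 and 3.70. Without DCIS.COM pCDH-empty 2 the value was 1.35.

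Among the box C/D snoRNAs, SNORD74 of GAS5 had 43 and 35 reads in MCF10A pCDH-empty, 21 and 27 in MCF10A pCDH-HOTAIR, 184 and 119 in DCIS.COM pCDH-empty, and 154 and 125 in DCIS.COM pCDH-HOTAIR, with no overlap between the lines. Its log2 fold changes were 1.90 ± 0.20 and 1.67 ± 0.20 with the empty and HOTAIR vectors (limma adjusted p = 6.34e-05 and 0.000139). SNORD32A rose by 1.53 ± 0.26 and 0.91 ± 0.26, SNORD35A by 1.41 ± 0.19 and 0.87 ± 0.19, and SNORD2 by 1.46 ± 0.27 and 1.24 ± 0.27, all on the log2 scale, with limma adjusted p-values from 0.000293 to 0.0141. With HOTAIR, SNORD32A was not called without DCIS.COM pCDH-HOTAIR 1 (0.79) or MCF10A pCDH-HOTAIR 1 (0.59). SNORD32A had 15 to 27 reads in MCF10A and 59 to 74 in DCIS.COM, and SNORD35A had 27 to 43 and 92 to 106. The authors sequenced paired ends of 76 nt, more than the RefSeq lengths of SNORD74 (72 nt) and SNORD2 (70 nt). Reads of the host RNA could thus be counted for these snoRNAs, and their part in the values was not tested.

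SNORA74A, an H/ACA snoRNA, had 44, 20, 22 and 12 reads in the MCF10A libraries and 86, 55, 188 and 131 in DCIS.COM. It gave log2 fold changes of 1.18 ± 0.37 with the empty vector (limma adjusted p = 0.0222) and 2.36 ± 0.37 with HOTAIR (limma adjusted p = 0.000675). The first was not called without DCIS.COM pCDH-empty 1 (0.94) or without MCF10A pCDH-empty 2 (0.75).

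The scaRNAs and snRNAs made up much of the rest. SCARNA5 had log2 fold changes of 0.65 ± 0.24 and 1.98 ± 0.24, and SCARNA16 0.89 ± 0.20 and 1.66 ± 0.20, with the empty and HOTAIR vectors, and all 4 passed. The empty-vector call of SCARNA5 was lost without MCF10A pCDH-empty 2 (0.39) and without either DCIS.COM pCDH-empty library (0.64 and 0.67). SCARNA10 passed with HOTAIR, at 1.12 ± 0.12 (limma adjusted p = 8.08e-05), and gave 0.16 ± 0.12 with the empty vector. U2 had 7.76, 7.67, 7.40 and 7.23 log2 CPM in MCF10A and 8.53, 8.12, 8.83 and 8.66 in DCIS.COM, with log2 fold changes of 0.61 ± 0.13 and 1.43 ± 0.13 (limma adjusted p = 0.00363 and 2.91e-05). Without DCIS.COM pCDH-empty 1 the first was 0.41, and without MCF10A pCDH-empty 2 it was 0.57, both below the fold limit.

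U1, U3, U4 and SNORD17 passed with HOTAIR, at 1.39 ± 0.18, 1.65 ± 0.20, 1.16 ± 0.23 and 1.31 ± 0.17, and not with the empty vector, where U1 gave 0.40 ± 0.18 and U3 0.52 ± 0.20, a fold below 1.5. Without DCIS.COM pCDH-empty 2, U1 (0.59) and U4 (0.75) were called there too. That the calls differ between vectors is not itself a tested difference: the interaction of each missed the threshold, as given above. U6 went the other way, with log2 fold changes of -0.49 ± 0.13 and -0.27 ± 0.13, and was not called.

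The 4 members called lower with the empty vector were SNORD89, SNORA1, SCARNA17 and SCARNA9. SNORD89 had 45, 42, 30 and 29 reads in MCF10A and 16, 14, 24 and 15 in DCIS.COM, with log2 fold changes of -1.40 ± 0.23 and -1.34 ± 0.23 (limma adjusted p = 0.000739 and 0.00101). It was the 1 member called lower with both vectors. Its host RNF149 had log2 fold changes of -1.50 and -1.40, and the snoRNA overlaps an annotated exon, so the counts are uncertain. SNORA1 (-1.12 ± 0.43), SCARNA17 (-1.06 ± 0.32) and SCARNA9 (-0.63 ± 0.18) were less firm: without DCIS.COM pCDH-empty 1 the values were -0.48, -0.50 and -0.41, and none was called. Their calls were also lost without MCF10A pCDH-empty 1 (-0.77, -1.05 and -0.63), those of SCARNA17 and SCARNA9 without MCF10A pCDH-empty 2 (-1.07 and -0.64), and that of SNORA1 without any one of the 4 pCDH-HOTAIR libraries (-1.12).

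7SL, RN7SK, RMRP, RPPH1 and TERC were not called between the lines with either vector. 7SL gave 0.11 ± 0.31 and 0.20 ± 0.31, and RN7SK 0.05 ± 0.20 and -0.02 ± 0.20, on the log2 scale. For both, DCIS.COM pCDH-empty 1 lay above the MCF10A pCDH-empty libraries and DCIS.COM pCDH-empty 2 below them. RMRP gave 0.25 ± 0.15 and 0.13 ± 0.15, and RPPH1 -0.09 ± 0.10 and 0.23 ± 0.10. TERC gave 0.35 ± 0.13 and 0.05 ± 0.13, and VTRNA1-3, a small RNA of the vault particle, passed at 0.90 ± 0.23 and 1.22 ± 0.23, the first not without MCF10A pCDH-empty 2 (0.68).

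Without DCIS.COM pCDH-empty 1, 23 members were called with the empty vector, 21 of them higher, at a background of 22.0% higher and 22.6% lower. Without DCIS.COM pCDH-empty 2 there were 61, 44 of them higher, at 23.9% and 26.5% (50.4% in all), and without MCF10A pCDH-empty 2 there were 19, 16 of them higher, at 21.4% and 22.6% (44.0% in all). With HOTAIR, leaving out DCIS.COM pCDH-HOTAIR 1 gave 27, 26 of them higher, at 20.5% and 21.0% (41.5% in all). Among the 70 members with a mean of at least 2 CPM, 18 were called with the empty vector, 16 higher, where 44.2% of all such features were called, 21.1% higher. With HOTAIR 26 were called, all higher, against 41.5% and 20.5%.

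**Figure D4:**
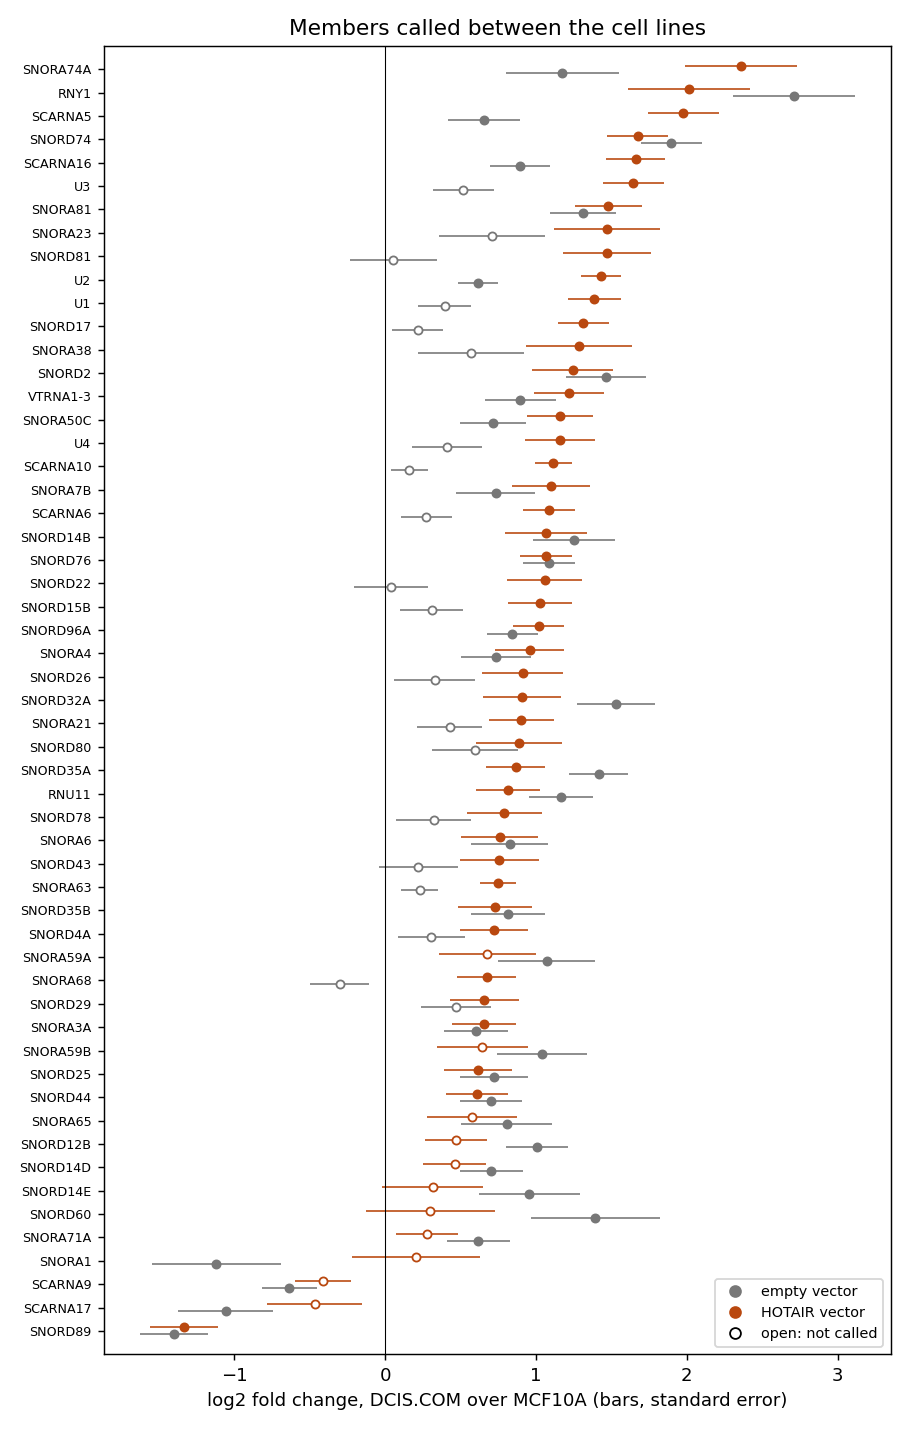
log2 fold change, DCIS.COM over MCF10A, of every member called in at least 1 of the 2 comparisons (grey, empty vector; orange, HOTAIR vector; filled, called; open, not called; bars, standard error). SNORD89 is the only member filled on the left in both colours, and RNY1 reaches 2.71 and 2.01.

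Many snoRNAs share a host gene, so the members were set beside their hosts. For 100 snoRNAs and scaRNAs with a single host in the table (60 hosts), the median log2 fold change between the cell lines was 0.28 with the empty vector and 0.54 with HOTAIR, against 0.09 and 0.07 when each host is counted once per snoRNA. The member was above its host in 65 and 81 of the 100 pairs. Across the pairs, member and host fold changes had a Pearson r of 0.33 and 0.24, a description over pairs that share libraries and, in part, hosts.

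EIF4A2 holds SNORA63, SNORA81, SNORA4 and SNORD2. The counts by host stand against 22.5% of all features called higher with the empty vector and 21.9% with HOTAIR. With the empty vector 3 of the 4 were called higher in DCIS.COM and with HOTAIR all 4, with medians of 1.02 and 1.10 on the log2 scale. Without MCF10A pCDH-HOTAIR 2, SNORA63 gave 0.57 in place of 0.75 with HOTAIR and was not called. EIF4A2 itself had log2 fold changes of -0.18 and -0.05 (limma adjusted p = 0.213 and 0.745). It had 6363, 5358, 4206 and 4322 reads in MCF10A and 4677, 5524, 7761 and 6761 in DCIS.COM. The hosts named here are those with at least 3 members in the table.

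GAS5 is a noncoding host whose span holds 9 of the members. Of these, SNORD78 overlaps an annotated exon and the others had no matched position, so reads of GAS5 could be counted with them. With the empty vector 3 of the 9 were called higher (22.5% of all features were) and with HOTAIR 6 (21.9% of all features), and 0 lower. The 9 ranged from -0.98 to 1.90 and from 0.54 to 1.67 on the log2 scale. GAS5 itself gave 0.50 and 0.79 (limma adjusted p = 0.00351 and 0.000283). SNHG1 holds 8 members, of which 1 and 4 were called higher while SNHG1 gave 0.24 and 0.29. TAF1D holds 7, of which 1 was called lower with the empty vector and 0 with HOTAIR, and TAF1D itself gave -0.72 and -0.19 (limma adjusted p = 0.0356 and 0.544), so it too was called lower with the empty vector. Most of that difference came from DCIS.COM pCDH-empty 1, where TAF1D had 3.71 log2 CPM. It had 4.66 in DCIS.COM pCDH-empty 2, and 4.96 and 4.84 in MCF10A pCDH-empty. Of the 3 members in each of EIF4A1, SNHG12, SNHG17 and ZFAS1, 0, 0, 1 and 1 were called with the empty vector and 0 with HOTAIR.

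Proteins that bind or make these RNAs were counted from lists. None of the 12 lists had a call with HOTAIR in MCF10A or in DCIS.COM. Between the lines, the counts below stand against 22.5% of all features higher and 23.8% lower with the empty vector, and 21.9% and 21.7% with HOTAIR. Of 4 box C/D proteins in the table, 1 was higher with each vector, FBL, the methyltransferase fibrillarin (log2 fold change 1.29 and 0.97). Of 6 H/ACA proteins, 1 was higher and 1 lower with the empty vector and 0 with HOTAIR. NHP2 gave 0.72 and 0.56, and GAR1 -1.21 and -0.28. Of 32 spliceosomal snRNP proteins, 9 were higher and 2 lower with the empty vector and 7 higher and 0 lower with HOTAIR, with SNRPG at 1.03 and 1.08.

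Against the same shares of all features (22.5% higher and 23.8% lower, then 21.9% and 21.7%), the other lists had these counts. Of 19 snoRNP assembly and U3 processome proteins, 4 and 3 were higher and 0 lower, led by COIL, the Cajal body protein coilin (1.07 and 1.11). Among 8 signal recognition particle proteins and receptor subunits, 3 and 1 were higher, with SRPRB, the beta subunit of the receptor, at 1.55 and 1.62. Of 9 proteins of the 7SK complex and P-TEFb, 2 were higher with each vector, with HEXIM2 at 1.88 and 1.65. The RNase P and MRP list of 11 had 1 higher and 2 lower, then 1 and 1, with RPP25 at -4.67 and -4.18. The Ro, La, vault and telomerase list of 6 had 0 higher and 2 lower with each, with MVP, the major vault protein, at -2.42 and -2.20. For RNA polymerase III and its factors, 6 of 32 were higher and 2 lower with each vector. The SMN complex had 2 and 1 of 10 higher, Integrator 4 and 3 of 14 higher and 1 lower with each, and the 36 host genes 5 and 3 higher and 2 lower with each.

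The members that stood apart in DCIS.COM pCDH-empty 1 were looked at by read count. The text names them by that value, after it was seen. SNORD97 had 56 reads there and 353, 575 and 493 in the other DCIS.COM libraries, and 348, 317, 224 and 175 in MCF10A. SNORD5 had 2 reads against 24, 38 and 32, SNORD79 2 against 21, 45 and 34, SNORD104 13 against 116, 126 and 111, SNORD47 18 against 118, 142 and 115, and SNORA32 28 against 135, 181 and 162. In these 6 the library was below every other library of either line.

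The library was not low throughout. RNY1 (2018 reads against 645 to 1140) and RNY3 (970 against 334 to 590) were more than 1 log2 unit above the median of the other 3 DCIS.COM libraries, and so were SNORA71D, SNORD13 and SNORA80A. The 14 low members hold 4 from GAS5 (SNORD47, SNORD77, SNORD79 and SNORD81) and 3 from TAF1D (SNORA1, SNORA32 and SNORD5). The GAS5 members ranged from -2.97 to 0.49 log2 units from the other DCIS.COM libraries, with GAS5 itself at -0.47. Those of TAF1D ranged from -2.89 to -0.00309, with TAF1D at -0.96. Whether the host RNA, the library preparation or another property of this library had a part in these values was not tested.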

How the data were processed

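RNA-seq of MCF10A and DCIS.COM cells with pCDH-empty or pCDH-HOTAIR was used, 2 libraries in each of 4 groups. The authors aligned reads to hg19 with Rsubread, used featureCounts with the UCSC knownGene models, and scaled the counts in edgeR, as their methods state. The assignment of reads to overlapping or near-identical genes, and the strand setting, are not given in the sources used here. The authors deposited log2 CPM, from which whole reads came back for 100% of values within 0.001 reads (prior 0.0717 CPM). No sample column was left unused.

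Members were chosen by symbol, and the members and lists were chosen with earlier results of these data known. Copies of U1, U3, U4, U5, U6 and 7SL were summed before testing. limma 3.58.1 in R 4.3.3 was fitted on 4 group means with a mean-variance trend over 13755 features; a call needed adjusted p below 0.05 and at least a 1.5-fold difference (no fold limit for the interaction). Simulated libraries had 200 changed genes among 13755. In the MCF10A comparison, 91.2% of 1.75-fold changes were recovered and 9.25% of calls were false. In DCIS.COM these shares were 92.2% and 6.22%. The changed genes all had more than 2 CPM, variation beyond counting error was the same for every gene, and no library stood apart. Since 56 of the members had a mean under 2 CPM, these shares do not carry over to the members. Named were 7SL, RN7SK, RMRP, RPPH1, TERC, U1, U3, the 3 members of each class with the highest mean CPM, not corrected for length, per comparison the 5 largest called in each direction and the 3 smallest p-values, and the 3 smallest interaction p-values. Positions and sequences came from GENCODE release 44 on GRCh37 (101 of 142 genes matched), and lengths and hosts from RefSeq on GRCh38 (142 of 142, hosts without strand). Alternatives were pseudocounts of 0.1 and 1, scaling, summing, limma-voom, no trend, separate fits, the replicate block, fold thresholds, a mean CPM of at least 2 and each library left out. Python 3.11.15 was used for the rest. The sequences of some members are not reported here.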

Additional observations from a re-analysis of the deposited data

How the results depend on the processing

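The alternatives were checked on 26 named results, and none of these reversed its direction. Of 479 checks on 26 named results, 445 kept the side of the threshold. Other values of named RNAs, such as those chosen for their level alone, were not among these checks. For some of those RNAs, the direction turned on which DCIS.COM pCDH-empty library was used, as given above. That held with HOTAIR in DCIS.COM and between the lines with the empty vector. The counts of calls with HOTAIR and for the interaction were 0 under every alternative except when a DCIS.COM pCDH-empty library was left out. With a library left out, the counts ranged from 0 to 3 for HOTAIR in MCF10A, 0 to 30 for HOTAIR in DCIS.COM, 0 to 34 for the interaction, 19 to 61 between the lines with the empty vector and 27 to 55 with HOTAIR. Between the lines, a log2 fold change of 1.5 gave 3 and 6 members with the empty and HOTAIR vectors, a mean CPM of at least 2 gave 18 and 26 (fewer members tested), and a pseudocount of 1 gave 19 with the empty vector. The cause of these changes was not tested, except that a larger pseudocount shrinks the fold changes of low members and fewer members enter under the mean CPM filter.

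The replicate numbers share only a number: deviations of same-numbered libraries correlated by 0.0350 in MCF10A and 0.00177 in DCIS.COM over 12209 genes. With the replicate block, 0 members were called with HOTAIR in either line, 35 between the lines with the empty vector and 48 with HOTAIR, and 0 for the interaction. Scaling without the 7SL reads moved log2 CPM by 0.191 to 0.247 per library and gave 35 and 48 calls between the lines. Depth limits the low members: 56 of the 126 had a mean under 2 CPM.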
